A study of Mus musculus with 6 samples.

Results

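Ultraviolet light joins RNA covalently to a protein that touches it, so a pull-down from irradiated cells differs from one without irradiation by the RNA that the bond holds, apart from other effects of the treatment. This comparison was made for the mouse protein Gtsf1 with 3 of the 6 libraries of the series, which were 2 crosslinked pull-downs, called 1 and 2 here, and 1 non-crosslinked pull-down. The other 3 libraries were the inputs of the same design, 2 crosslinked and 1 not, and their values are given beside those of the pull-downs as the background; a difference between them also rests on 1 non-crosslinked library. The libraries were chosen by their labels alone.

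All 6 libraries came from P19 cells, an established mouse embryonal carcinoma line, transfected transiently with mouse Gtsf1 that carried a C-terminal TEV-Strep tag and was driven by the EF-1alpha promoter of the vector pEF. The tagged protein was therefore expressed on top of whatever the cells make themselves, and the non-crosslinked controls carry the same construct, so neither control lacks the bait. The crosslinked groups received 400 mJ at a wavelength of 254 nm, and the non-crosslinked groups are labelled as having no crosslinking. Per the labels' protocols, lysates were treated with RNase I, the bait was collected on MagStrep beads in the pull-down groups, and unselected lysate was kept in the input groups. The labels do not say whether crosslinked libraries 1 and 2 came from separate cultures, and the spread between them may be technical.

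Gtsf1 is a small protein with paired zinc fingers that is needed for transposon silencing by the PIWI-interacting RNA (piRNA) pathway in the germ line. Transfer RNAs (tRNAs) are the adaptors of translation. They are made by RNA polymerase III from an internal promoter whose B box lies in the part of the gene that encodes the T arm. In eCLIP the RNA fragments that stay with the protein are sequenced, and each library is a set of shares: the amount of RNA that each pull-down yielded is not given in the sources used here.

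The files named 37 tested features as miRNA or pri-miRNA, and 12 of them matched a RefSeq entry by name. Several of the short features that were higher in both crosslinked pull-downs belong here, so their RefSeq sequences (GRCm38.p6) are printed before the values, 5′ to 3′. The mature miRNAs are shown with the seed, bases 2 to 8, in capitals. No 2 of the 3 share a seed, and no other mature sequence of the 1738 searched has any of these seeds. The search did not cover every chromosome.
miR-3963, chr3:151023839-151023857, minus strand: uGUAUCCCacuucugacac
miR-5100, chr11:60728698-60728718, plus strand: uCGAAUCCcagcggugccucu
miR-5126, chr1:84695890-84695911, plus strand: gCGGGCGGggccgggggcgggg

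The hairpins of miR-1983 and miR-5100 are shown because both contain the letters GUUCGANNC, which are those of the T arm of most tRNAs and are capitalised here.
mir-1983 hairpin, chr13:21896918-21897049, minus strand: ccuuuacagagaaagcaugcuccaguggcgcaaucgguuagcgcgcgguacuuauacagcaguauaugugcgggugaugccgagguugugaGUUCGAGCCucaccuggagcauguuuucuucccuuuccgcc
mir-5100 hairpin, chr11:60728663-60728726, plus strand: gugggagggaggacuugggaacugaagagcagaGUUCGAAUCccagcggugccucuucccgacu
The motif was looked for after the values of these RNAs had been seen. It occurred in 5 of the 1005 RefSeq hairpins searched (0.498%) on the transcript strand, these being the hairpins of miR-1983, miR-5100, miR-434, miR-490 and miR-6364, and in 1 (0.0995%) on the opposite strand. This search too did not cover every chromosome.

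The 3 pull-downs held 11326383 (non-crosslinked), 14064251 and 13554137 annotated reads, so that 1 read was worth 0.0883, 0.0711 and 0.0738 RPM, the depth-scaled unit used throughout, with annotated reads as the depth. The non-crosslinked pull-down detected 614337 features and the crosslinked ones 1042138 and 1036536. Unannotated reads, which were left out, made up 14.0% of the non-crosslinked pull-down and 12.7% and 14.4% of the crosslinked ones. Of the 10 embryonal carcinoma markers, 7 reached 1 RPM on average; their summed level was 56.4 to 77.5 RPM in the pull-downs and 79.6 to 104 RPM in the inputs. Pou5f1 and Lin28a had reads in all 6 libraries, whereas Nanog had 0 reads in the non-crosslinked pull-down and Dppa5a 0 in all 3 pull-downs. Markers of endoderm summed to 3.15 to 4.80 RPM in the pull-downs and 0.0765 to 0.742 RPM in the inputs. In the pull-downs neural markers summed to 3.31 to 7.57 RPM, mesoderm markers to 1.38 to 1.76 RPM, and germ cell markers to 0.256 to 0.418 RPM.

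Ribosomal RNA took a smaller share of the crosslinked pull-downs, and nearly every other class took a larger one, with the nuclear-encoded and mitochondrial tRNA classes in front. Ribosomal RNA fell from 81.5% of the annotated reads without crosslinking to 67.4% and 68.0% with it. Of 25 classes with at least 100 reads in each pull-down, 22 had a larger share in both crosslinked pull-downs than in the non-crosslinked one, and 2, rRNA and pre-mRNA, a smaller one. Here pre-mRNA is the files' name for a class of unspliced transcript features. The inputs showed a like drop of rRNA, to 0.845 and 0.882 of its non-crosslinked share, against 0.827 and 0.835 in the pull-downs. Because these are bulk libraries, more of an RNA per cell and more cells that hold it cannot be told apart.

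The tRNA share was 0.106% (95% Wilson interval 0.104 to 0.108%) without crosslinking, 0.387% (0.384 to 0.390%) in crosslinked pull-down 1 and 1.05% (1.05 to 1.06%) in crosslinked pull-down 2. These shares were 3.64 and 9.92 times the non-crosslinked one, so both crosslinked libraries lay above it, and they differed from each other by a factor of 2.73, the widest gap between them among the classes. In the inputs, crosslinking left the tRNA share at 0.917 and 0.938 of its non-crosslinked value. Mitochondrial tRNA, which is encoded in the mitochondrial genome and made by a different polymerase, rose from 0.0187% to 0.0732% and 0.0731%, or 3.90 times in both, against 1.87 and 1.22 times in the inputs. The 2 crosslinked pull-downs thus agreed closely for mitochondrial tRNA and not for nuclear-encoded tRNA.

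Introns, the largest class after rRNA, went from 7.12% to 16.6% and 15.7% of the reads, 2.33 and 2.20 times, beside 1.78 and 1.71 times in the inputs. Exons rose 1.46 and 1.48 times, beside 1.45 and 1.36 times. The short interspersed elements (SINEs) rose 2.55 and 2.53 times, beside 2.67 and 2.65 times in the inputs, and the long interspersed elements (LINEs) 1.31 and 1.35 times, beside 1.94 and 2.05 times. For exons, SINEs and LINEs the inputs thus differed about as much as the pull-downs or more, and for introns less. The class of ribozymes, chiefly the RNA of RNase P and RNase MRP, stood at 1.95 and 1.94 times its non-crosslinked share, against 1.15 and 1.21 times in the inputs.

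**Figure D1:**
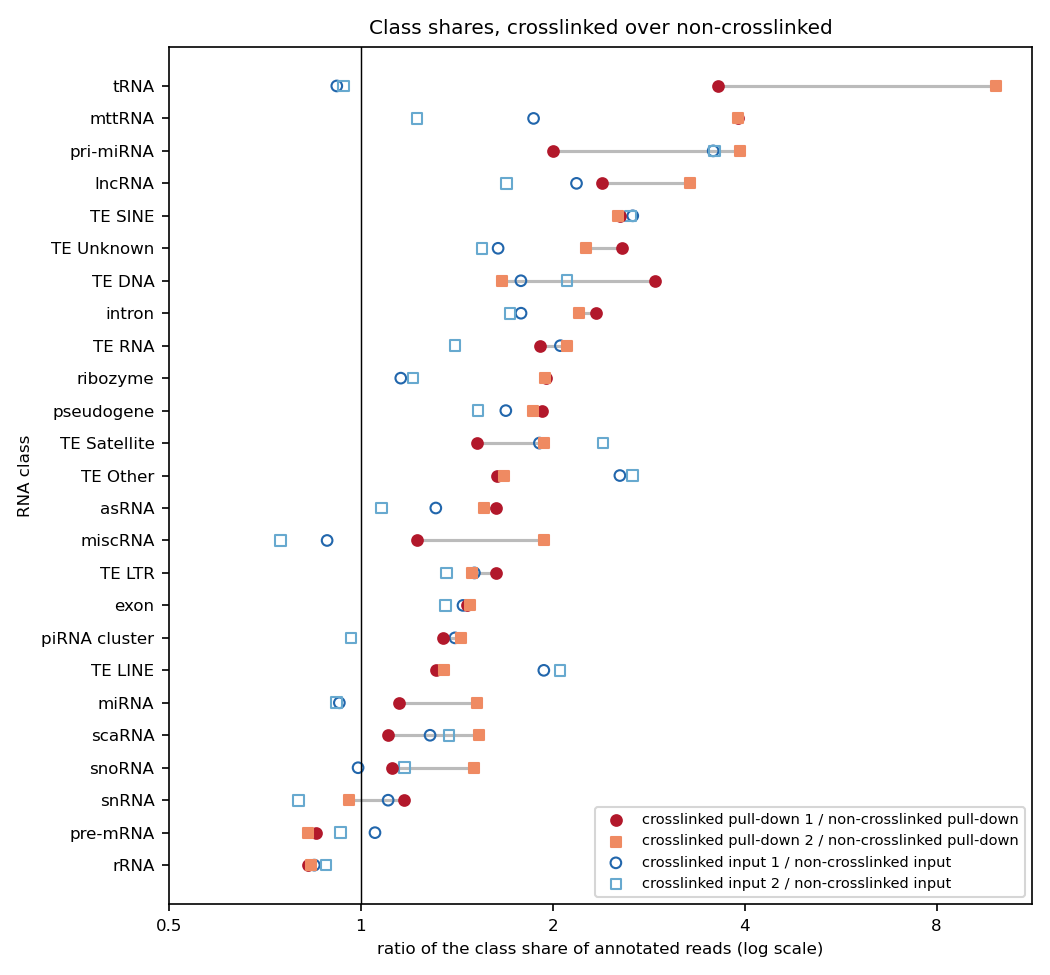
Share among annotated reads of each RNA class with at least 100 reads in every pull-down, as the ratio of a crosslinked library over the non-crosslinked one, on a logarithmic axis. Filled symbols are the 2 pull-downs and open symbols the 2 inputs; each symbol is 1 library, with no error bar. The tRNA class lies at 3.64 and 9.92, the latter the farthest to the right of the classes shown, while its inputs lie at 0.917 and 0.938.

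The drop of rRNA moves every other ratio, so each direction was read under other scalings as well. With rRNA left out of the library sizes, log2 ratios of features well above 1 RPM shift by -0.82 and -0.79, and with the TMM factors of edgeR, which centre most features, by -1.33 and -1.26. Only 10 of the 25 classes kept a larger share in both crosslinked pull-downs when rRNA was left out. The share of tRNA among the reads outside rRNA then rose 2.07 and 5.75 times, that of mitochondrial tRNA 2.22 and 2.26 times, that of introns 1.33 and 1.27 times and that of SINEs 1.45 and 1.47 times, whereas LINEs (0.746 and 0.784) and exons (0.832 and 0.859) fell below 1.

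Feature by feature, a call required at least a 2-fold difference in both crosslinked pull-downs on log2(RPM + 1), among the 35766 features that averaged 1 RPM or more across these pull-downs. With 1 non-crosslinked library there is no replicate check on that side, and no test was made. By this rule 7831 features (21.9%) were higher and 119 (0.333%) lower with crosslinking, and introns, 21087 of the features tested, made up 83.7% of the former. The median log2 ratio of all features was 0.79 and 0.73. The share of higher among called features was 98.5%, against 66.0% with rRNA left out of the library sizes (3352 higher, 9.37%, and 1725 lower, 4.82%) and 9.41% with TMM factors (316 higher, 3041 lower). The same rule on the inputs called 665 features higher (1.86%) and 20 lower (0.0559%), and 312 of the 7831 were also higher there. After each pull-down was divided by its input, 656 features (1.83%) were higher and 282 (0.788%) lower.

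**Figure D2:**
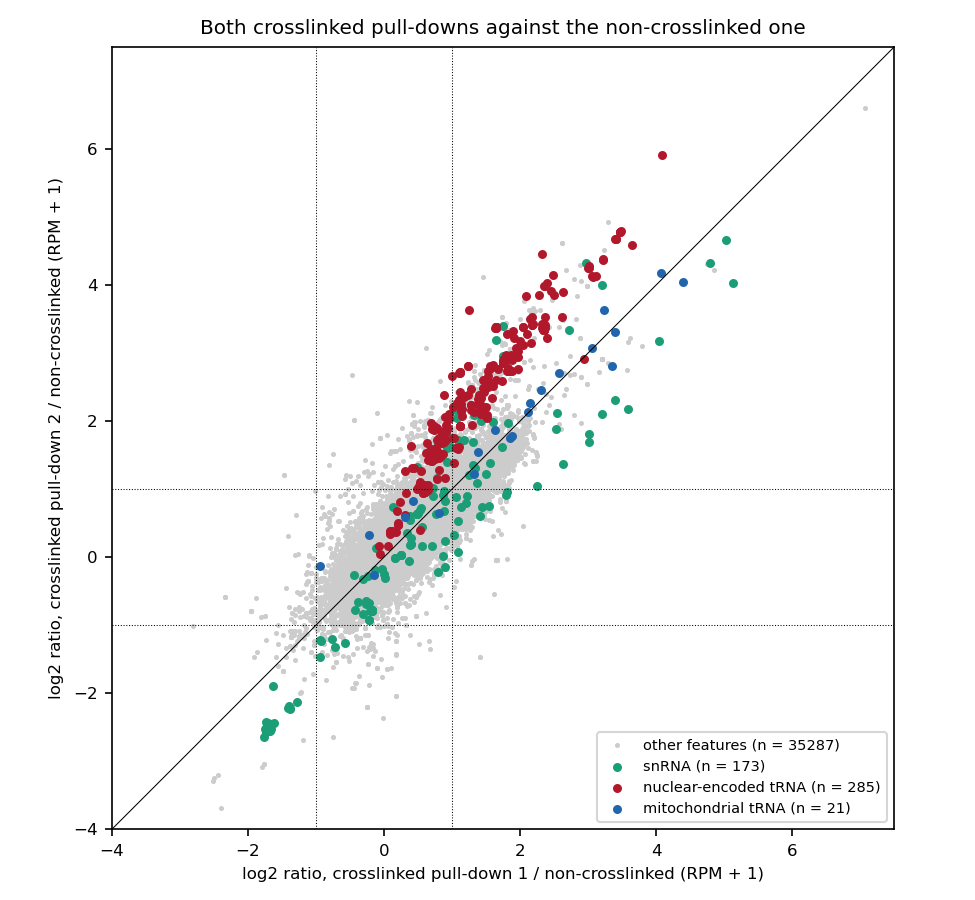
Log2 ratio of each tested feature in crosslinked pull-down 1 (horizontal) and 2 (vertical) over the non-crosslinked pull-down, on RPM + 1. Each point is 1 feature, dotted lines mark a 2-fold difference and the solid line equal ratios. Of the 285 nuclear-encoded tRNAs 283 lie above the line of equal ratios, and the mitochondrial tRNAs lie along it; a knot of snRNA features lies at the lower left.

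Among the tRNAs, 285 of 869 features in the files passed the level filter, and these held 98.7% of the tRNA reads of the non-crosslinked pull-down. Of the 285, 174 (61.1%) were higher and 0 lower, beside 21.9% higher over all features. Their median log2 ratio was 1.28 in pull-down 1 and 2.26 in pull-down 2. The counts became 136 higher and 0 lower with rRNA left out of the library sizes, 91 and 0 with TMM factors, and 176 and 0 after division by the inputs. In the inputs alone, 1 of the 285 was higher and 3 were lower, with medians of 0.11 and 0.04. At least 4-fold was reached by 54 tRNA features, 33.1% of the 163 such features (0.456% of all tested), although tRNAs were 0.797% of the features tested; 4 features of any class (0.0112%) were at least 4-fold lower. A total of 43 tRNA features had 3 or fewer reads in the non-crosslinked pull-down, and of the 242 with more, 141 were higher. Exceptions to the direction were tRNA-Pro-AGG-3-1, at 2.89 RPM without crosslinking and 2.71 and 3.35 RPM with it, and tRNA-Trp-CCA-2-1, at 1.15 RPM and then 1.06 and 1.23 RPM.

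Many tRNA genes have identical copies whose reads the authors' counts split, so reads were summed by anticodon. All 47 anticodon groups lay above the non-crosslinked level in both crosslinked pull-downs, and 38 were at least 2-fold and 17 at least 4-fold higher in both. Crosslinked library 2 exceeded library 1 for all 47, by 0.32 to 1.74 on the log2 scale. With rRNA left out of the library sizes 41 groups stayed above in both and 3, the proline groups, fell below in both; with TMM factors 34 stayed above. The number at least 2-fold higher in both was 21 with rRNA left out, 17 with TMM factors and 29 after division by the inputs. None of the 47 passed 2-fold in both inputs in either direction.

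Gln-CTG had the highest mean ratio of the 47 groups. It had 9.40 RPM without crosslinking and 199.6 and 485 RPM with it. Its log2 ratios were 4.27 and 5.55, beside 0.79 and -0.01 in the inputs. Gln-TTG, the other glutamine anticodon, had 6.13 RPM and then 85.2 and 201 RPM, with log2 ratios of 3.59 and 4.82. Both glutamine isoacceptors were therefore high in both crosslinked libraries, and all glutamine tRNA features, those of any other anticodon included, went from 1.54% to 7.74% and 6.79% of the tRNA reads.

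Alanine showed the same direction at a much greater number of reads. Ala-AGC had 20.2 RPM without crosslinking and 230.2 and 748 RPM with it, at log2 ratios of 3.45 and 5.14 and input ratios of 0.38 and 0.10. Its gene tRNA-Ala-AGC-3-1, with 8.13 RPM and then 154 and 548 RPM, held most of these reads in the crosslinked libraries. Ala-TGC had 54.8 RPM and then 305 and 987 RPM, and Ala-CGC 36.8 RPM and then 201 and 616 RPM. All alanine tRNA features went from 10.5% to 19.1% and 22.4% of tRNA reads.

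Thr-AGT and Ser-GCT completed the 5 highest groups. Thr-AGT rested on 5 reads in the non-crosslinked pull-down against 244 and 547 with crosslinking, at log2 ratios of 3.67 and 4.84. Ser-GCT had 2.30 RPM and then 34.9 and 92.5 RPM, at 3.45 and 4.83. Asn-GTT (3.48 and 4.62) and Ile-AAT (3.22 and 4.34) followed closely, by less than the gap between the 2 crosslinked libraries. The selenocysteine tRNA, SeC-TCA, which inserts the amino acid selenocysteine at reprogrammed stop codons, had 25.2 RPM and then 143 and 392 RPM (2.46 and 3.91), while its inputs fell below the non-crosslinked input (-0.89 and -1.03).

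The groups with the most reads were not those with the largest differences. Asp-GTC had 297 RPM without crosslinking and 987 and 3308 RPM with it, at log2 ratios of 1.73 and 3.47. It supplied 27.9% of tRNA reads without crosslinking and 25.5% and 31.4% with it. Glu-TTC went from 117 RPM to 265 and 804 RPM (1.17 and 2.77). Asp-GTC (0.92 and 2.69) and Glu-TTC (0.36 and 1.99) no longer passed 2-fold in both with rRNA left out of the library sizes. Glu-CTC, the other glutamate anticodon, did not pass 2-fold in both (0.74 and 1.65), although its inputs lay lower with crosslinking, at -0.91 and -1.09.

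The proline groups formed the other end of the range. Pro-AGG had 22.6 RPM without crosslinking and 24.02 and 30.2 RPM with it, at log2 ratios of 0.08 and 0.40. Pro-TGG stood at 0.14 and 0.48 and Pro-CGG at 0.24 and 0.56; these 3 groups turned below 0 in both libraries when rRNA was left out. Next came Lys-TTT (0.72 and 1.39) and the initiator iMet-CAT (0.82 and 1.29), which starts translation and differs in sequence and structure from the elongator Met-CAT (2.06 and 3.27). Proline tRNAs thus shrank from 4.68% to 1.43% and 0.666% of the tRNA reads. By amino acid, 19 of 22 groups were at least 2-fold higher in both, and tryptophan, iMet and proline were not; 11 passed with rRNA left out and 10 with TMM factors.

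**Figure D3:**
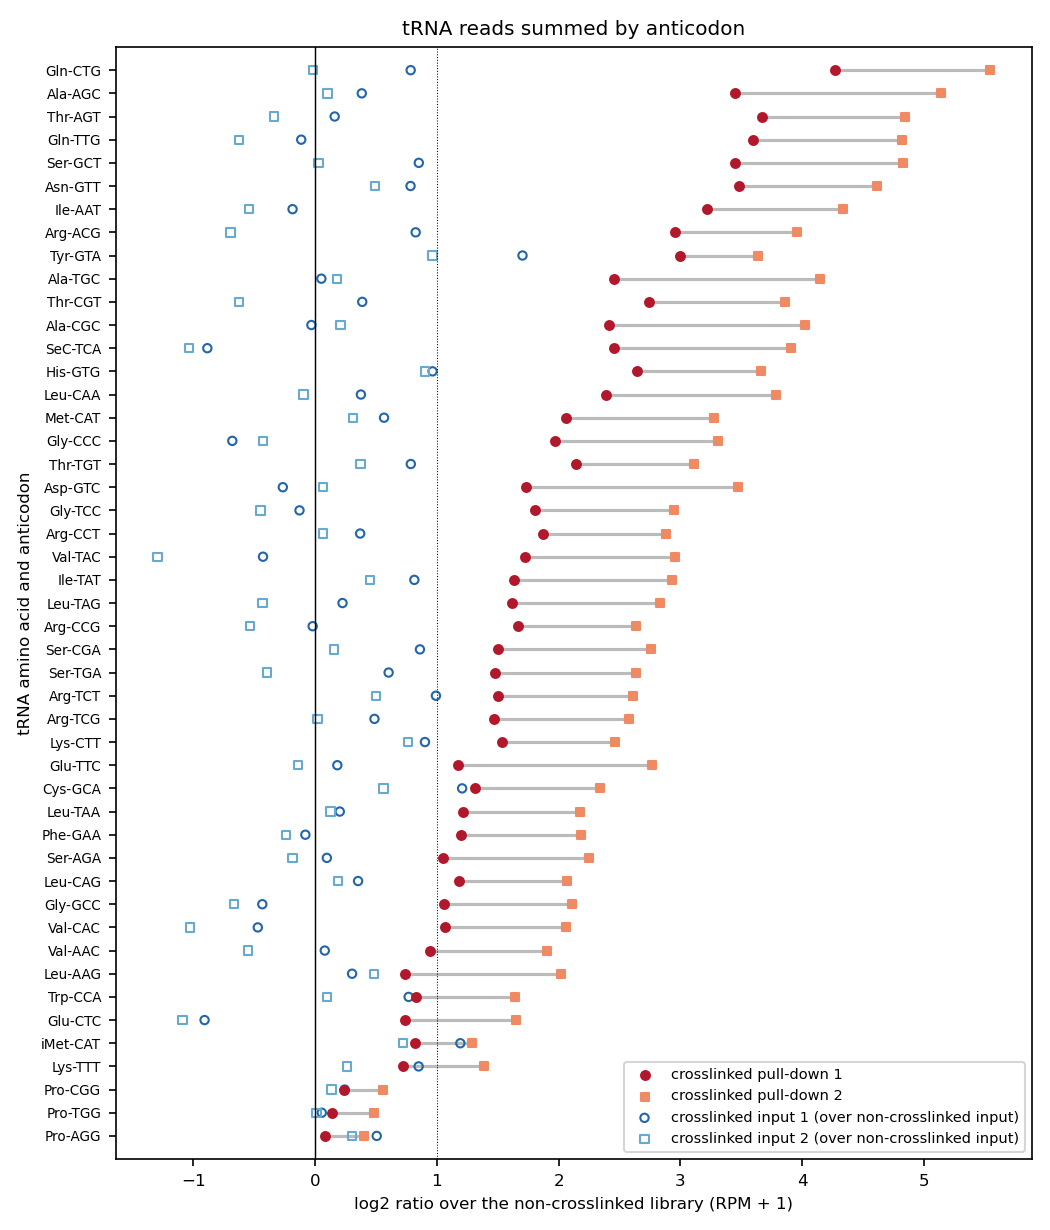
Log2 ratio over the non-crosslinked library, on RPM + 1, for tRNA reads summed by anticodon (47 groups, ordered by their mean). Filled symbols are the 2 crosslinked pull-downs and open symbols the 2 crosslinked inputs over the non-crosslinked input, 1 library each. Gln-CTG at the top reaches 4.27 and 5.55, and the proline groups at the bottom stay under 0.57.

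Of the 21 mitochondrial tRNAs, 15 (71.4%) were higher and 0 lower, beside 21.9% higher over all features, and 10 were at least 4-fold higher in both, beside 0.456%. With rRNA left out of the library sizes 13 were higher, with TMM factors 9 were higher and 2 lower, and after division by the inputs 8 were higher. Their median log2 ratio was 1.88 and 1.86, beside 0.54 and 0.20 in the inputs. The valine tRNA, Tv, had 7.42 RPM without crosslinking and 140 and 152 RPM with it. Its log2 ratios were 4.07 and 4.18, beside 0.54 and -0.30 in the inputs, and it went from 3.96% to 19.1% and 20.8% of the mitochondrial tRNA reads. Its inputs held 92.4 RPM without crosslinking and 135 and 75.0 RPM with it. The log2 ratio of pull-down over input was thus -3.47 without crosslinking, and 0.06 and 1.01 with it. The cysteine tRNA, Tc, rose from 9 reads to 516 and 388 (4.39 and 4.05), but its inputs also differed, by 2.94 and 2.18. The asparagine and lysine tRNAs, Tn (15.6 RPM, then 169 and 116 RPM) and Tk (8.21 RPM, then 96.0 and 90.1 RPM), showed the same pattern and did not pass 2-fold after division by the inputs.

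The glutamate (Te), isoleucine (Ti), arginine (Tr) and aspartate (Td) tRNAs were higher in the crosslinked pull-downs, with inputs between -0.47 and 0.24. Ti lay below its own input in each pull-down, at log2 ratios of -3.12 without crosslinking and -0.83 and -0.20 with it. Te went from 3.80 RPM to 27.4 and 30.2 RPM (2.57 and 2.70, inputs 0.24 and 0.20). At the other end, the leucine tRNA Tl1 had 53.0 RPM without crosslinking, more than any other mitochondrial tRNA there, and 27.2 and 48.1 RPM with it (-0.93 and -0.14). Tw, Ts1, Tq, Tg and Tl2 did not pass 2-fold in both either. The 21 thus formed a graded series, in which Tp (1.39 and 1.54) and Tm (1.32 and 1.22) were the lowest past 2-fold and lost the call with rRNA left out. For each of the 21 both crosslinked libraries fell on the same side of a 2-fold rise.

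**Figure D4:**
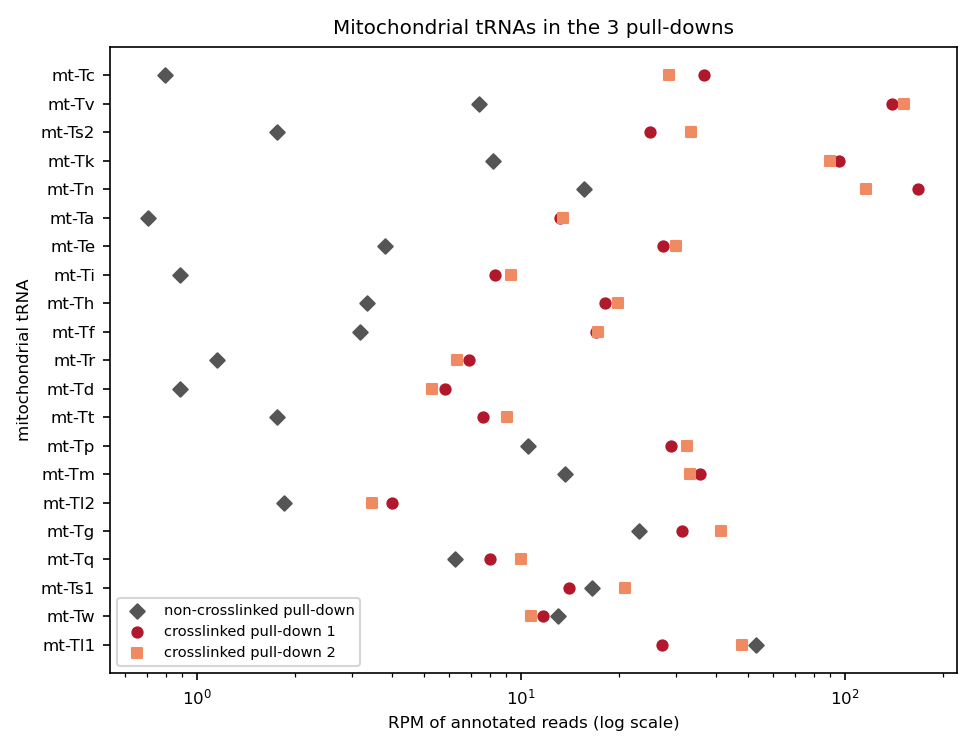
Level of each mitochondrial tRNA in the 3 pull-downs, in RPM of annotated reads on a logarithmic axis, ordered by the mean log2 ratio. Each symbol is 1 library, with no error bar. In the upper rows the crosslinked symbols lie together and far to the right of the non-crosslinked one, as for Tv at 140 and 152 RPM against 7.42 RPM; in the bottom row, Tl1, the order is turned.

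Among other small RNAs made by polymerase III, the vault RNA Vaultrc5, part of the vault ribonucleoprotein, differed most. It had 33 reads (2.91 RPM) without crosslinking and 292 and 718 reads (20.8 and 53.0 RPM) with it. Its log2 ratios were 2.48 and 3.79, beside 0.47 and 0.24 in the inputs. The Y RNAs, partners of the Ro60 protein, were higher too: Rny3 by 1.49 and 2.16 and Rny1 by 1.10 and 1.96, but Rny3 differed in the inputs too (1.80 and 1.40), and Rny1 turned below 0 in pull-down 1 with TMM factors (-0.21). Neither passed 2-fold in both with rRNA left out (Rny3 0.74 and 1.45, Rny1 0.30 and 1.20) or after division by the inputs. Of the other named polymerase III RNAs, U6 fell, as given next, and the following did not pass 2-fold in both. The copies of 7SK, which holds the elongation factor P-TEFb inactive, stood at 0.93 and 1.07, Rmrp at 1.06 and 0.94, Rpph1 of RNase P at 0.37 and 0.79, and the signal recognition particle RNA Rn7s1 at -0.08 and 0.46.

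Among the snRNAs, features of the length of U6 made up nearly all of the falls. Of 173 tested features, 38 (21.97%) were higher, beside 21.9% over all features and 8.67% over all but introns. A further 48 (27.7%) were lower, beside 0.333% over all features and 0.634% over all but introns. The counts were 24 higher and 66 lower with rRNA left out of the library sizes and 16 higher and 12 lower after division by the inputs. These 48 are 48 of the 119 lower features in all. Of the 48, 47 matched a RefSeq gene, and all 47 had the length of 107 bases that RefSeq gives for Rnu6, the U6 RNA at the catalytic centre of the spliceosome. A further 17 tested snRNA features of that length passed in neither direction. The levels of the 48 lower features were alike: the median was 14.8 RPM without crosslinking and 3.80 and 1.72 RPM with it. Rnu6 itself had 15.1 RPM and then 3.93 and 1.76 RPM, with log2 ratios of -1.71 and -2.54, beside -0.17 and -1.57 in the inputs, and it did not pass 2-fold in both after division by the inputs. The deposited counts split reads between near-identical copies, so these 48 features are not 48 separate observations.

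The other spliceosomal RNAs differed from U6. Rnu11 and Rnu12, of the minor spliceosome, were higher by 1.82 and 1.97 and by 1.73 and 1.62; their inputs stood at 0.03 and -0.46 and at 0.97 and 0.21. Rnu12 no longer passed 2-fold after division by the inputs (0.76 and 1.41) or with rRNA left out (0.92 and 0.84). Rnu5g, which serves both spliceosomes, went from 31.8 RPM to 87.2 and 130.0 RPM (1.43 and 2.00, inputs -0.05 and -0.52), and stood at 0.64 and 1.24 with rRNA left out. Its inputs held far more, 2057 RPM without crosslinking and 1985 and 1436 RPM with it, so each pull-down lay well below its input. The abundant Rnu1a1 had 1314.5 RPM and then 1162 and 765 RPM (-0.18 and -0.78), and Rnu2-10 stood at 0.48 and 0.63. Rnu7, which guides the processing of histone transcript ends, rose from 7.37 RPM to 64.3 and 167 RPM (2.96 and 4.33), but its inputs differed as well, by 5.07 and 4.28, and the non-crosslinked input held 3 reads of it. The snRNA features with the largest mean ratios were Gm24763 (1.43 RPM, then 78.2 and 60.5 RPM; inputs 2.92 and 2.99) and Gm25630 (2.21 reads, then 573 and 251; inputs 0.17 and 0.27).

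**Figure D5:**
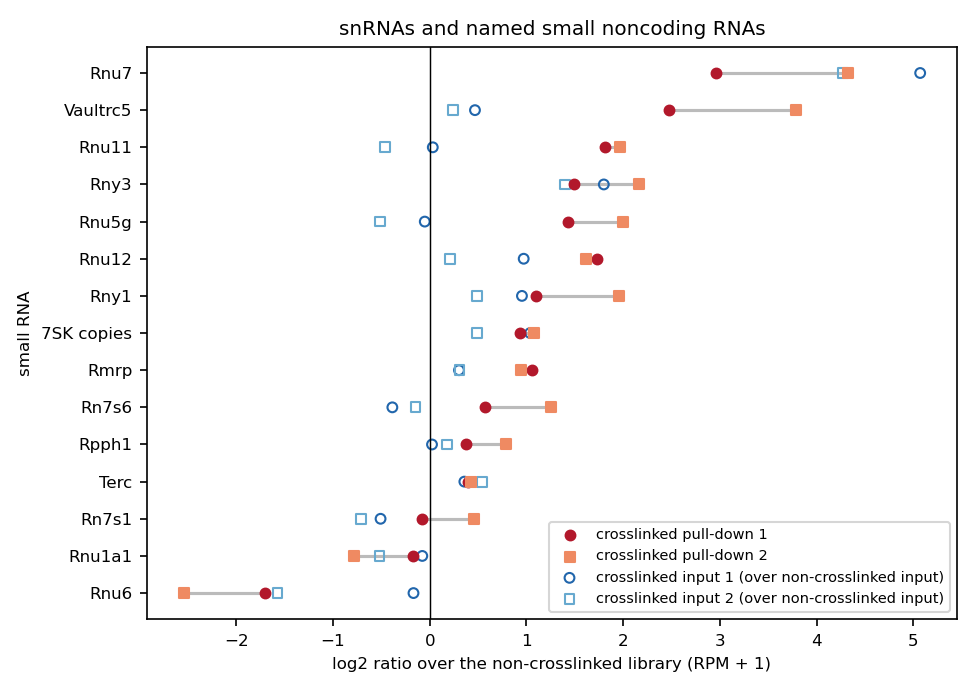
Log2 ratio over the non-crosslinked library, on RPM + 1, for spliceosomal and other named small RNAs. Filled symbols are the 2 crosslinked pull-downs and open symbols the 2 inputs, 1 library each. Rnu7 and Vaultrc5 lie at the right; for Rnu7 the inputs lie as far right, and for Vaultrc5 they lie at 0.47 and 0.24, while Rnu6 is the lowest.

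Within rRNA, the smaller share lay in LSU-rRNA, of the large ribosomal subunit, and in 5S. LSU-rRNA had log2 ratios of -0.51 and -0.45, and 5S of -0.33 and -0.35. SSU-rRNA, of the small subunit, stood at 0.12 and 0.07 and the mitochondrial mt-Rnr2 at 0.20 and 0.11, while mt-Rnr1 differed between the libraries (0.08 and -0.55). The 5.8S rRNA, also of the large subunit, went the other way, from 639 RPM to 1165 and 1037 RPM (0.87 and 0.70), beside 1.46 and 1.12 in the inputs. Single rRNA features did not all follow: 42 of 286 were higher (11 at least 4-fold) and 7 lower, 71 were higher in the inputs, and after division by the inputs 3 were higher and 31 lower. None of the 7 types passed 2-fold in both, and 6 of them lay below the non-crosslinked level in both when rRNA was left out of the library sizes.

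Of 354 snoRNA features, 40 (11.3%) were higher, beside 21.9% over all features and 8.67% over all but introns, and 0 lower. The counts were 22 higher and 12 lower with rRNA left out, 5 and 73 with TMM factors and 7 and 7 after division by the inputs, and the inputs alone had 63 higher. The crosslinked libraries also disagreed here. The H/ACA box RNAs named Snora in the files, which guide pseudouridylation, summed to 864 RPM without crosslinking and to 1061 and 1961 RPM with it. The C/D box RNAs named Snord, which guide 2′-O-methylation, summed to 3033 RPM and then 2987 and 4584 RPM. U3, a C/D box RNA that acts in rRNA processing, is not in that sum and had 4224 RPM and then 4860 and 4635 RPM, and snoRNAs with other names had 3236 RPM and then 3800 and 5885 RPM. Pull-down 2 thus exceeded pull-down 1 in these sums except for U3, and 80 snoRNA features differed at least 2-fold between the crosslinked libraries, all of them higher in pull-down 2. Over all classes 544 features (1.52%) differed that far, 407 of them higher in pull-down 2, among which were 119 tRNAs.

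The miRNA and pri-miRNA features whose sequences are printed above were few in reads. miR-3963 had 10 reads without crosslinking and 182 and 487 with it (2.89 and 4.29, inputs 0.64 and -0.99). miR-5100 had 3 reads and then 31 and 108, a difference of 1.34 and 2.83 on log2(RPM + 1). The mir-1983 feature had 21 reads and then 100 and 292 (1.51 and 2.98, inputs 0.64 and 0.51). The mir-5126 feature had 145 reads and then 470 and 1159 (1.32 and 2.65), but its inputs differed as well (1.45 and 1.41). In the same class n-TStga1, whose name is that of a serine tRNA gene, went from 4 reads to 24 and 49.5. mir-1949 was the remaining member past 2-fold, at 1.23 and 1.42 with inputs at 1.64 and 1.55, so that 6 of 37 were higher and 0 lower, beside 21.9% higher over all features and 8.67% over all but introns. With rRNA left out, 3 miRNA features were higher and 4 lower and 2 pri-miRNA features higher and 1 lower. With TMM factors these counts were 1 and 6 and 0 and 2, and after division by the inputs 3 and 2 and 0 and 1.

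Among 230 piRNA cluster regions, 27 (11.7%) were higher and 2 lower, beside 21.9% higher over all features and 8.67% over all but introns. The counts became 15 higher and 11 lower with rRNA left out and 2 and 22 with TMM factors. The names are bands of the chromosome, and the following were chosen after their values were seen. Cluster chr13-qA2.4 had 15 reads without crosslinking and 305 and 945 with it (3.29 and 4.93, inputs 0.12 and -0.26). Cluster chr11-qE1.9 had 11 reads and then 101 and 348. Cluster chr5-qF.16 had 107 reads and then 390.5 and 2453, so the crosslinked libraries differed strongly from each other. Its inputs held far more, 29961 reads without crosslinking and 66926 and 39572 with it. After division by the inputs it did not pass 2-fold in both (0.61 and 4.08). The 2 lower clusters were chr8-qE1.64 (-1.74 and -1.22, inputs -0.53 and -0.80) and chr8-qE1.65 (-1.91 and -1.48, inputs -0.63 and -0.89). Whether a read can count in a cluster and in another class at once is not given in the sources used here.

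Summed by subfamily, transposons rose in many cases, and so did the inputs. Of single copies 6.90% of SINE, 5.34% of LINE, 8.62% of LTR and 4.11% of DNA transposon features were higher. Over all features the share was 21.9%, and over all but introns 8.67%. With TMM factors the single copies higher and lower were 14 and 84 for SINEs, 24 and 164 for LINEs, 22 and 145 for LTR elements and 2 and 18 for DNA transposons. Of the SINE subfamilies with a mean of at least 10 RPM, 27 of 32 were higher and 0 lower, with medians of 1.32 and 1.34, beside 1.69 and 1.66 in the inputs and 0.02 and 0.09 with TMM factors. The B1 elements (named Alu in the files), which derive from the 7SL RNA, went from 994 RPM to 2801 and 2699 RPM, and the tRNA-derived B2 elements from 821 RPM to 2040 and 2164 RPM. Of the 32 SINE subfamilies only 1 stayed past 2-fold with rRNA left out of the library sizes. With TMM factors 0 were higher and 0 lower, and after division by the inputs 0 were higher and 3 were lower. For LINEs 10 of 88 subfamilies were higher, against 1 with rRNA left out. With TMM factors 0 were higher and 7 lower, and after division by the inputs 0 were higher and 1 lower. The L1 family stood at 0.36 and 0.41, below its inputs (0.93 and 1.03) and below 0 when rRNA was left out (-0.45 and -0.38). L1Md_T, a young L1 subfamily, went from 1430 RPM to 617 and 880 RPM (-1.21 and -0.70), while in the inputs it was 0.85 and 1.13 higher with crosslinking.

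For the LTR class 51 of 149 subfamilies were higher and 1, RMER17A-int, was lower (295 RPM, then 101 and 122 RPM). The medians were 0.85 and 0.84, below those of the inputs (1.08 and 1.07), and the counts turned to 1 higher and 12 lower after division by the inputs and to 4 and 20 with TMM factors. RLTR44C had the highest mean ratio, with 29.5 reads without crosslinking and 205 and 527 with it (2.11 and 3.47, inputs 0.79 and -0.11). Among DNA transposons 16 of 24 were higher, with medians of 1.25 and 1.15 beside 1.25 and 1.21 in the inputs, and 1 was higher after division by the inputs. Past 2-fold with rRNA left out of the library sizes were 4 LTR and 5 DNA subfamilies, beside 1 of the SINEs and 1 of the LINEs. A single copy, MER97a_dup33, had 8 reads and then 3218 and 2231 (7.07 and 6.60), the largest ratio of any tested feature, and its inputs also differed by 5.44 and 5.34. Another copy, FordPrefect_dup264, held most reads of the class and moved unevenly, from 2005 RPM to 5859 and 2937 RPM.

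With annotated reads as the depth, intron reads were more often higher than exon reads, an order that did not hold under every scaling. Summed by gene, intron reads were higher for 5048 of 9402 genes (53.7%) and lower for 10 (0.106%), exon reads higher for 689 of 8382 (8.22%) and lower for 7 (0.0835%), and pre-mRNA reads higher for 1 of 2508 (0.0399%) and lower for 15 (0.598%). With rRNA left out of the library sizes these counts were 1254 higher and 83 lower for introns, 142 and 118 for exons, and 0 and 741 for pre-mRNA. Feature by feature, 59 of 21087 introns and 55 of 8399 exon features were higher with TMM factors, and 209 and 145 after division by the inputs. Over intron reads summed by gene the median log2 ratio was 1.18 and 1.13, beside 0.79 and 0.74 in the inputs. Over single intron features it was 0.96 and 0.88, beside 0.62 and 0.58 in the inputs.

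The 1 pre-mRNA feature called higher was that of Gtsf1, the transfected gene. It had 535 reads (47.2 RPM) without crosslinking and 1644 and 3329 reads (117 and 246 RPM) with it. Its log2 ratios were 1.29 and 2.35, beside -0.08 and -0.07 in the inputs. The exon reads of Gtsf1 went from 203 to 1670 and 3796 (2.66 and 3.89), beside 0.99 and 0.95 in the inputs. Reads of the construct and of the cell's own gene cannot be told apart in these counts. The exon feature Eef1a1_exon1_8 is of the mouse gene for EF-1alpha, the protein that the vector's promoter is named for. The species of that promoter is not given here. The feature had 0 reads in the non-crosslinked pull-down and in its input, 91 and 211 in the crosslinked pull-downs and 1 and 2 in the crosslinked inputs. Against a floor of 3 reads this was at least 24.4-fold and 58.8-fold higher, and it was singled out after its values were seen. Summed over all its exons, Eef1a1 was not called: it is among the 7 translation factors, of which 0 were higher. The part of the construct in the reads of Gtsf1 and of this exon feature was not tested.

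Of the other exon sums, Rps6ka6, a kinase of the RSK family, had the largest ratio (1.70 RPM, then 91.1 and 72.5 RPM), but it differed in the inputs too (3.89 and 3.33). Cacna1g, a T-type calcium channel subunit, went from 10.8 reads to 260 and 325 (3.32 and 3.68) with inputs at -0.09 and 0.23, and Prex1, an activator of Rac, from 33.4 reads to 401 and 513 (2.90 and 3.30). Azin2, an antizyme inhibitor, went from 10.2 reads to 101 and 285. The 5 lowest were Csmd1, Sema3c, Bmpr1b, Pnck and Stag3. Csmd1 exons had 321 RPM without crosslinking and 94.7 and 40.0 RPM with it (-1.75 and -2.97), although in the inputs they were higher with crosslinking (0.81 and 1.77).

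Among intron sums the highest were Zfpm1 (82.8 RPM, then 2247 and 1656 RPM), with a still larger difference in the inputs (5.67 and 5.30), and Gsap, which had 5.81 reads and then 198 and 796 (3.32 and 5.30, inputs 0.30 and 0.42). Gm20388, Sim2 and Ctnna3 followed. Fstl4 was the lowest (354 RPM, then 66.0 and 39.4 RPM), and its pre-mRNA feature fell with it (-2.44 and -3.21). Cmss1 introns, with 8171 RPM without crosslinking and 3231 and 3271 RPM with it, had log2 ratios of -1.34 and -1.32, beside -0.73 and -0.83 in the inputs. The remaining lower pre-mRNA features named by the rule were of ribosomal proteins: Rpl23a, Rpl21, Rpl7a and Rps6, each with inputs below 0.

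The gene lists, read on exon sums beside 8.22% of genes higher, gave few calls. Of 25 piRNA pathway genes only Gtsf1 and Tdrkh reached 1 RPM, and Tdrkh stood at 1.00 and 0.95. Among 15 tested factors of small RNA and tRNA processing, the higher ones included Dgcr8, a subunit of the Microprocessor (1.38 and 1.38, inputs 0.88 and 0.87), and 0 were lower. Of 83 ribosomal protein genes 8 were higher and 0 lower, among them Rps29 (1.48 and 1.74, inputs 1.27 and 1.54) and Rps21 (1.29 and 1.76, inputs 1.47 and 1.30). The list had medians of 0.35 and 0.55 beside 0.54 and 0.61 over all genes. Of 61 histone genes Hist4h4 alone was higher, and of 9 pluripotency genes Lin28b alone (1.13 and 1.04), whose mean was -0.018 with TMM factors. None of 13 mitochondrial messenger RNAs and none of 7 translation factors passed 2-fold, and 10 of the 13 lay below the non-crosslinked level in both libraries. The median of the mitochondrial messengers was -0.09 and -0.51, beside -0.51 and -0.36 in the inputs.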

How the data were processed

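The authors deposited, for each library, for every feature an expected count, with the reads of multiply matched features divided among them, and an RPM value. The submitters' processing notes list bcl2fastq 2.19, STAR 2.5.2b, bedtools 2.29.0 and the build mm10, without roles. The annotation, the removal of PCR duplicates and the use of strand are not given in the sources used here. The authors' enrichment table and the deposited RPM were not used. Counts were divided by the annotated reads of the library, and ratios of log2(RPM + 1) were taken without rounding, for features averaging 1 RPM or more across the 3 pull-downs. A call needed 2-fold in both crosslinked pull-downs; the pseudocount of 1 understates changes of low features and makes falls from a low level uncallable. No statistical test was run, because 1 library stands on a side. Wilson intervals (95%) and the floor of 3 reads cover counting error only. The calls were tested on simulated data. Named features were the 10 highest and 10 lowest called (identical counts once, at most 3 per class), the 2 with the most reads per class, the 5 highest and 5 lowest groups, genes and subfamilies, Gtsf1, named small RNAs and list members called. Members, lists and rules were chosen with earlier results of these data known. Python 3.11.15 (pandas 2.3.3, NumPy 2.4.6, matplotlib 3.10.9) and, for TMM factors, edgeR 4.0.16 in R 4.3.3 were used. Alternatives changed the pseudocount, filter, scaling, fold, duplicate features, input division and the libraries. A gene of the list of small-RNA and tRNA factors is not reported here.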

Additional observations from a re-analysis of the deposited data

Results flagged for a closer look

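For the following values both crosslinked pull-downs lay on one side of the non-crosslinked pull-down and both crosslinked inputs on the other side of theirs; the difference between pull-down and input was not tested, and each group had at most 2 libraries. Log2 ratios were screened only for items picked by the naming rules, and among these only where called 2-fold in both pull-downs. Other anticodon groups met the same condition without being screened. Among them were Ile-AAT (3.22 and 4.34, inputs -0.19 and -0.54) and Gly-CCC (1.97 and 3.31, inputs -0.68 and -0.43). The value given is the mean log2 ratio in the pull-downs minus that in the inputs. It was positive for the tRNA group Gln-TTG (4.58), tRNA-SeC-TCA-1-1 (4.14), the mitochondrial tRNA Td (2.00006, from 10 reads without crosslinking), Rnu5g (1.9971) and the Gtsf1 pre-mRNA feature (1.89). For Rnu5g this is not a gain over input, because each pull-down held less of it than its input did.

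It was negative for the following. Fstl4 gave -3.69 for the feature Fstl4_intron3_1, -3.72 for all intron reads and -3.49 for its pre-mRNA. Csmd1 gave -3.61 for 1 exon feature and -3.65 for all exon reads. The exon reads of Pnck gave -2.92, those of Sema3c -2.36, those of Stag3 -2.01 and those of Bmpr1b -1.87. Among repeats, MTEa_dup1681 gave -4.09, RMER1B_dup3445 -3.24, the subfamily RMER17A-int -2.77, L2a_dup11835 -2.71 and RMER17A_dup336 -2.56.

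As a ratio of shares, pull-down over input, the tRNA class stood at 7.31, miscRNA at 1.94 and miRNA at 1.45. With rRNA left out of the library sizes the last 2 classes had a mean share ratio in the pull-downs below 1.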

How the results depend on the processing

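The 7831 higher and 119 lower features became 20297 and 392 at 1.5-fold, 163 and 4 at 4-fold, 19922 and 213 with a pseudocount of 0.1 RPM, 807 and 68 with 5 RPM, and 1030 and 39 at a mean of 10 RPM. They became 3352 and 1725 with rRNA left out of the library sizes, 316 and 3041 with TMM factors, 290 and 3348 with median-of-ratios size factors, and 656 and 282 after division by the inputs. Counting identical features once left 4937 and 103. With 1 crosslinked library left out, the counts ranged from 9386 to 11315 higher and from 203 to 278 lower. The median tRNA log2 ratio of 1.80 became 0.92 with a pseudocount of 5 RPM, 0.10 without a level filter, 2.51 at 10 RPM, 1.02 with TMM and 0.98 with median-of-ratios factors, and ranged from 1.28 to 2.26 with 1 library left out. The tRNA share ratio of 6.78 ranged from 3.64 to 9.92.

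Among classes above 1 in both libraries, mean share ratios turned below it with rRNA left out for LINE (0.765), LTR (0.896), other repeats (0.951), satellites (0.993), asRNA (0.914), exons (0.846), miRNA (0.766), miscRNA (0.910), piRNA clusters (0.798), scaRNA (0.756) and snoRNA (0.753); that of snRNA, above 1 in 1 library only, went from 1.06 to 0.610. After division by the inputs they did so for LINE (0.668), other repeats (0.636), SINE (0.956), satellites (0.803), pri-miRNA (0.829) and scaRNA (0.985). Log2 ratios turned after division by the inputs for Gm23502 (-0.18), SSU-rRNA_Hsa-19 (-1.86), Zfpm1_intron4_1 (-1.07), all Zfpm1 introns (-0.96), ORR1A2-int_dup182 (-2.20), B4_dup11896 (-1.20), 4831440D22Rik (-0.66), Rnu7 (-1.03), L1MC5 (-0.14) and PB1D7 (-0.69). With TMM factors they turned for B4_dup11896 (-0.11), 2610005L07Rik (-0.077), Rps10 (-0.025), Rps27a (-0.066) and Lin28b (-0.018). Except where the construction of an alternative shows it, the cause was not tested.

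No paired analysis was possible because the non-crosslinked pull-down is 1 library with no number to pair. Depth limits the 827 tested features with 3 or fewer reads in that library, and 544 features differed at least 2-fold between the crosslinked libraries.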
